A study of Mus musculus with 24 samples.

Results

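Fibroblast growth factor (FGF) receptors and the genes that restrain or read out their signal were followed in mouse alveolar epithelial cells (AECs) through culture, with and without keratin 8 (Krt8). The set held 9 genes, namely the receptors Fgfr1, Fgfr2 and Fgfr3, the inhibitors Spry1, Spry2, Spry4 and Spred1, the transcription factor Etv4 and the phosphatase Dusp6. They were taken by symbol from the deposited table of raw counts, where they are 9 of 55421 Ensembl gene entries, and all 9 passed the filter on low counts together with the rest of the 18046 genes tested. RNA sequencing covered 24 libraries in 8 groups of 3: type II AECs (AEC2s) of Krt8+/+ or Krt8-/- mice, taken as freshly isolated on day 0 or after 1, 3 or 7 days of 2D culture. The 3 libraries of a group are biological replicates 1, 2 and 3, and the labels give all libraries with the same replicate number the same batch, across both genotypes and all days. What a batch marks (an isolation, a culture or a sequencing run), and the number and age of the animals behind it, were not given in the sources used here. The study describes the knockout as a global deletion of Krt8, so cells other than AEC2s lacked it as well, and the cultures were grown on a stiff surface coated with laminin. Libraries held 10184439 to 19483386 counts. Krt8 itself measured 485 to 5092 CPM (counts scaled to a common library size) in Krt8+/+ libraries, whereas the Krt8-/- libraries had 21.2 to 47.4 CPM, with no overlap. In replicate 1 the genotypes differed in sex-linked transcripts: Krt8+/+ libraries held 62.4 to 79.5 CPM of Xist and Krt8-/- libraries 5.92 to 12.0 CPM, while Y-linked genes summed to at most 0.441 and at least 173 CPM. The Krt8-/- libraries of replicate 1 thus held both kinds. In replicate 3, which also held Y-linked transcripts, Xist was at most 2.24 CPM. Replicates 2 and 3 were matched in this respect, and the comparisons of genotypes are therefore also summarised without replicate 1.

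FGF receptors are receptor tyrosine kinases that, once bound by an FGF and heparan sulphate, signal through adaptor proteins to RAS and ERK. Fgfr2 carries the FGF7 and FGF10 signal from mesenchyme to lung epithelium, which lung budding and AEC2 maintenance need, whereas Fgfr1 is the receptor best known in mesenchymal cells. Sprouty and Spred proteins dampen the path from receptor to ERK, Dusp6 removes phosphate from ERK, and Etv4 is an ETS transcription factor. Their genes are commonly switched on by the signal that they then restrain or carry, which is why they are read as a feedback group.

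Positions follow GRCm38 with the GENCODE M21 annotation, in which all 9 are protein-coding genes. Fgfr1 (ENSMUSG00000031565) is at chr8:25513654-25575718 on the plus strand, Fgfr2 (ENSMUSG00000030849) at chr7:130162451-133123350 on the minus strand and Fgfr3 (ENSMUSG00000054252) at chr5:33721674-33737068 on the plus strand. Spry1 (ENSMUSG00000037211) is at chr3:37639947-37644598 on the plus strand, Spry2 (ENSMUSG00000022114) at chr14:105891947-105896819 on the minus strand and Spry4 (ENSMUSG00000024427) at chr18:38586247-38601415 on the minus strand. Spred1 (ENSMUSG00000027351) is at chr2:117121374-117182279 on the plus strand, Etv4 (ENSMUSG00000017724) at chr11:101769742-101785371 on the minus strand and Dusp6 (ENSMUSG00000019960) at chr10:99263231-99267489 on the plus strand. Fgfr2 shares 314 exon bases on its own strand with Ctbp2, which measured 44.8 to 118 CPM, so reads of those bases could be assigned to either gene. Ctbp2 stood at up to 399% of the CPM of Fgfr2 in a library, and the low values of Fgfr2 in culture are the most exposed. How far this overlap affects the values and shares of Fgfr2 was not tested. Antisense neighbours of Fgfr1, Fgfr3 and Spry1 stayed at or below 1.34 CPM.

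In culture the set split by direction rather than by role, and the split was alike in the numbers called for each genotype. On day 1 against day 0, 7 of the 9 genes passed an adjusted p of 0.05 in Krt8+/+ cells (edgeR quasi-likelihood test, Benjamini-Hochberg over all genes), 2 of them higher and 5 lower, where 54.7% of all tested genes passed, 26.2% higher and 28.5% lower. On day 3 the count was again 7, made up of 3 risers and 4 fallers, where 54.0% of all genes passed, 26.1% higher and 27.8% lower. Day 7 had 7 once more, 3 of them higher and 4 lower, where 58.8% of all genes passed, 28.6% higher and 30.2% lower. Krt8-/- cells gave the same numbers of higher and lower genes on each day, so 7 were called on day 1 beside 50.6% of all genes (23.7% higher, 26.9% lower), 7 on day 3 beside 52.0% (25.4% higher, 26.6% lower), and 7 on day 7 beside 58.5% (28.6% higher, 29.9% lower). More than 1 in 2 genes therefore passed the same test, so the counts alone are not far from the background, and the sizes of the changes below carry the description. The median log2 fold change of the 9 genes against day 0 in Krt8+/+ cells was -0.78, -0.19 and -0.36 on days 1, 3 and 7, beside 0.00 over all genes. All comparisons against day 0 share their day 0 libraries within a genotype.

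**Figure D1:**
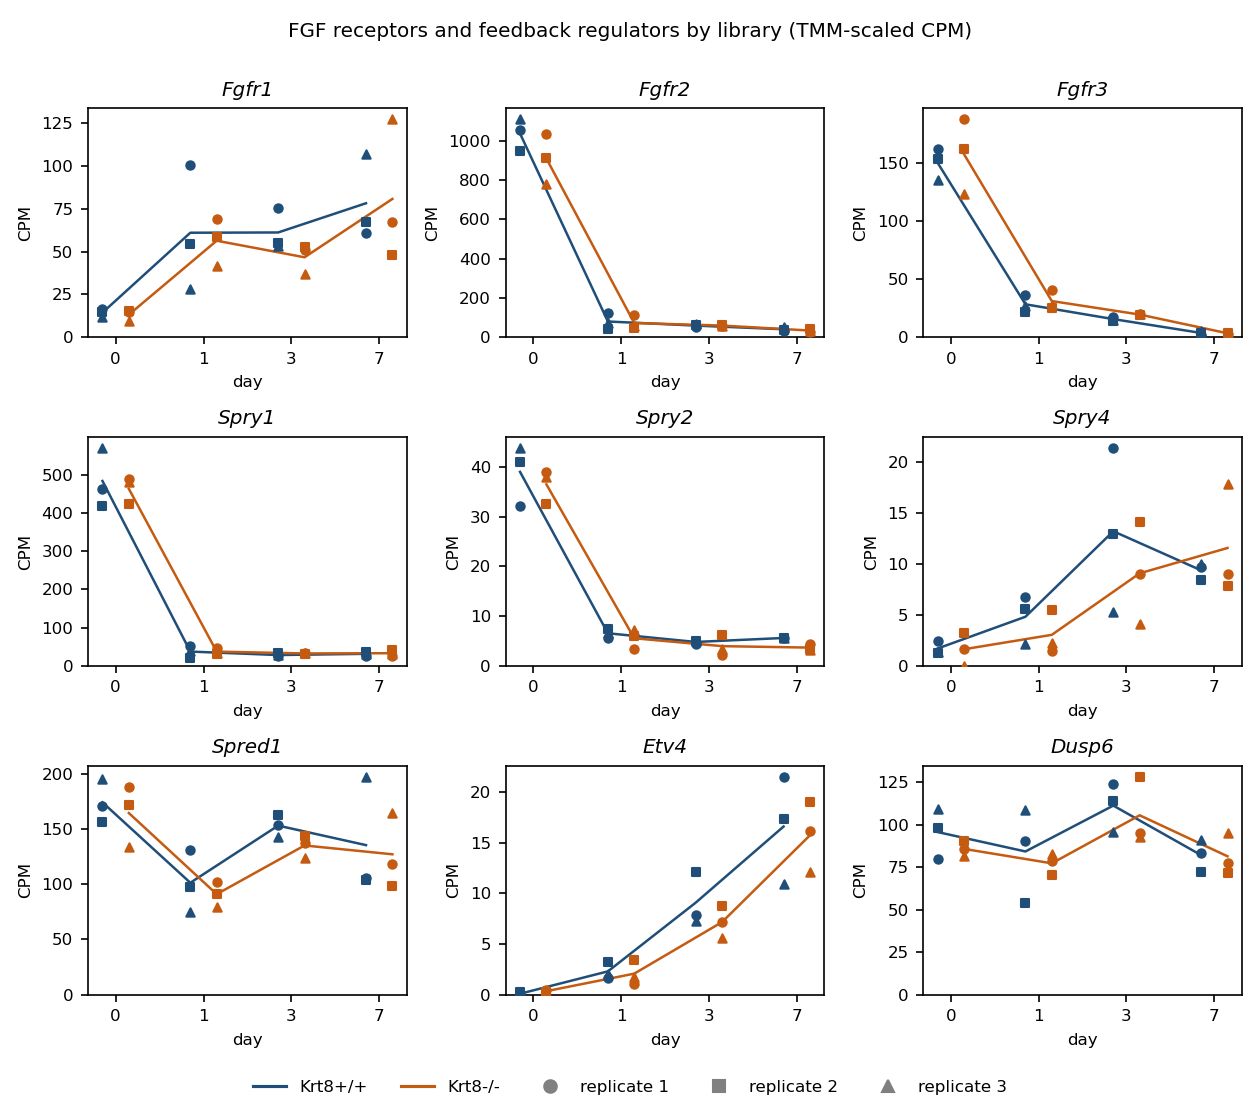
CPM (linear axis from 0) of each of the 9 genes by day for each library, with genotypes by colour, replicates by symbol and lines through the group means. Fgfr2, Fgfr3, Spry1 and Spry2 stand far higher on day 0 than on any later day, Fgfr1, Spry4 and Etv4 stand lowest on day 0, and Dusp6 stays between 53.8 and 128 CPM in all libraries.

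Fgfr2, the epithelial receptor for FGF7 and FGF10, fell most within the first day. In Krt8+/+ cells it measured 1054, 949 and 1112 CPM in replicates 1, 2 and 3 on day 0, 125, 39.3 and 74.1 CPM on day 1, 48.9, 60.5 and 66.4 CPM on day 3, and 33.4, 37.1 and 49.2 CPM on day 7. Every cultured library was below every fresh one. The fall against day 0 was 13.0-fold on day 1 (log2 -3.70, SE 0.35, adjusted p 4.3e-08), 17.7-fold on day 3 and 26.0-fold on day 7 (log2 -4.70, SE 0.37, adjusted p 1.8e-09). Krt8-/- cells held 1035, 914 and 783 CPM on day 0, 115, 45.1 and 55.8 CPM on day 1, 55.05, 64.1 and 57.0 CPM on day 3, and 26.7, 41.1 and 32.1 CPM on day 7. These groups did not overlap between day 0 and culture either, and the fall reached 27.3-fold on day 7 (log2 -4.77, SE 0.37, adjusted p 1.5e-09). On day 1 replicate 1 was the highest and replicate 2 the lowest in both genotypes.

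Fgfr3, a related receptor that is found in alveolar epithelium, kept falling through the whole week. Krt8+/+ cells held 162, 154 and 136 CPM on day 0, 35.9, 21.9 and 27.1 CPM on day 1, 17.4, 14.1 and 15.1 CPM on day 3, and 2.04, 3.73 and 4.90 CPM on day 7. The 4 days did not overlap with each other. Against day 0 the level was 5.32-fold lower on day 1, 9.69-fold lower on day 3 and 42.3-fold lower on day 7 (log2 -5.40, SE 0.28, adjusted p 9.6e-12). Krt8-/- cells held 188, 162 and 123 CPM on day 0, 40.4, 24.8 and 28.1 CPM on day 1, 19.7, 18.9 and 19.7 CPM on day 3, and 2.69, 3.74 and 3.44 CPM on day 7. The days were again apart, with a 48.0-fold fall by day 7 (log2 -5.59, SE 0.28, adjusted p 6.7e-12). Fgfr3 was the only one of the 9 genes that passed the test in each step from 1 sampled day to the next in both genotypes. In Krt8-/- cells, however, the adjusted p of its step from day 1 to day 3 was above 0.05 with any 1 replicate left out. In Krt8+/+ cells this held for some such fits, as given with the steps within culture.

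Fgfr1 moved the other way. It measured 16.4, 14.6 and 11.8 CPM in fresh Krt8+/+ cells, then 100.3, 54.7 and 28.0 CPM on day 1, 75.8, 54.8 and 53.0 CPM on day 3, and 60.9, 67.0 and 107 CPM on day 7. Every cultured library was above every fresh one, and the day 1 libraries were spread the widest. The rise was 4.27-fold on day 1 (log2 2.09, SE 0.39, adjusted p 1.7e-04), 4.28-fold on day 3 and 5.48-fold on day 7 (log2 2.45, SE 0.40, adjusted p 2.3e-05). Fgfr1 in Krt8-/- cells measured 14.7, 15.2 and 9.43 CPM on day 0, 69.1, 58.5 and 41.5 CPM on day 1, 50.8, 52.5 and 36.7 CPM on day 3, and 67.0, 47.8 and 127 CPM on day 7. Fresh and cultured groups did not overlap, and the rise on day 7 was 6.17-fold (log2 2.63, SE 0.40, adjusted p 1.1e-05). Replicate 3 was the highest on day 7 in both genotypes.

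The opposite moves changed which receptor made up most of the FGF receptor RNA. To compare levels between genes, CPM was divided by the exon length of each gene in kilobases, and each receptor was expressed as a share of the sum over Fgfr1, Fgfr2, Fgfr3 and Fgfr4 within a library. In fresh Krt8+/+ cells Fgfr2 made up 81.2% (mean, n = 3), Fgfr3 17.0% and Fgfr1 1.17% ± 0.204 (SD, n = 3). By day 7 Fgfr1 made up 63.4%, 61.6% and 66.0% in replicates 1, 2 and 3, Fgfr2 31.6% and Fgfr3 3.95% on average. Between those days the share of Fgfr1 was 33.3% ± 12.0 on day 1 and 43.7% ± 6.72 on day 3, so it lay above every fresh library in all cultured ones. The share of Fgfr1 in Krt8-/- cells went from 1.17% ± 0.169 on day 0 to 33.9% ± 6.75, 35.5% ± 4.06 and 65.9% ± 13.5 on days 1, 3 and 7, with 68.4%, 51.3% and 78.0% in the 3 day 7 libraries. The exact two-sided permutation test gave p = 0.1 for each day against day 0 in each genotype, which is the smallest value that 3 against 3 libraries allow. The summed receptor level dropped at the same time, from 124 ± 7.54 CPM per kb in fresh Krt8+/+ cells to 18.4 ± 9.11, 14.1 ± 0.783 and 12.4 ± 3.54 CPM per kb on days 1, 3 and 7. Without Krt8 it went from 112 ± 17.5 to 17.2 ± 5.73, 13.3 ± 1.13 and 12.0 ± 3.98 CPM per kb.

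**Figure D2:**
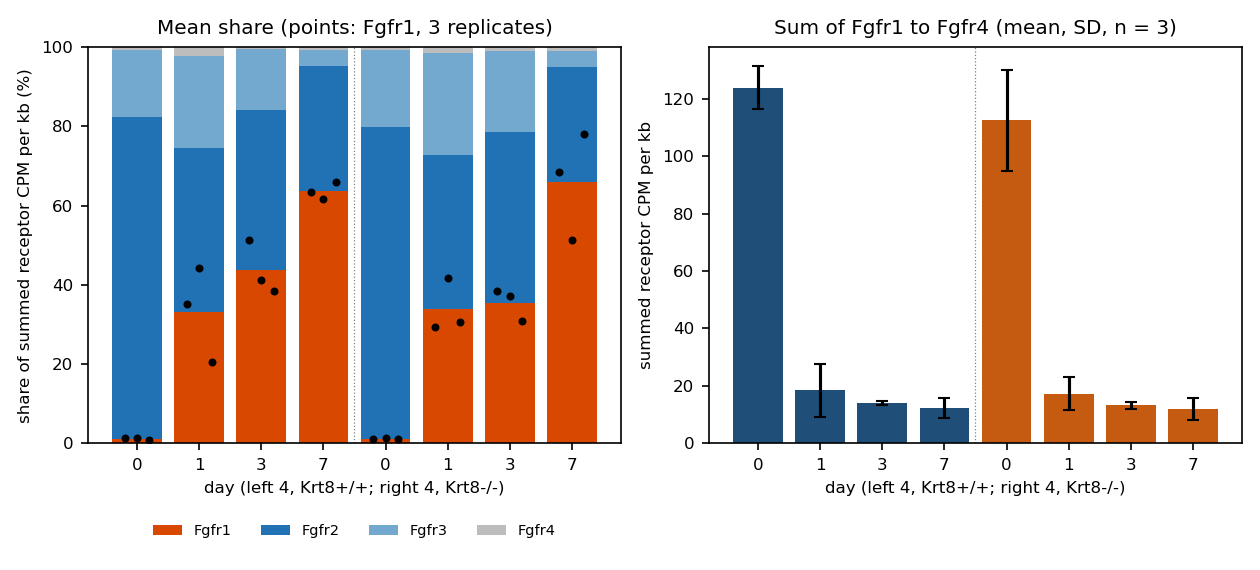
Mean share (%) of Fgfr1 to Fgfr4 in their summed CPM per kb by genotype and day as stacked bars, with points for the Fgfr1 share of single libraries, beside the summed level (CPM per kb, mean and SD, n = 3). Fgfr1 goes from 1.17% to 63.7% of the sum in Krt8+/+ cells while the sum goes from 124 to 12.4 CPM per kb.

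Among the inhibitors, Spry1 was the most abundant in fresh cells and fell, as Fgfr2 did. Fresh Krt8+/+ cells held 462, 418 and 570 CPM of Spry1, followed by 51.8, 21.1 and 39.3 CPM on day 1, 24.7, 32.7 and 27.7 CPM on day 3, and 26.1, 36.7 and 31.9 CPM on day 7. Fresh and cultured libraries did not overlap, and the 3 culture days overlapped with each other. The level was 12.9-fold lower on day 1 (log2 -3.69, SE 0.26, adjusted p 7.4e-10), 17.1-fold lower on day 3 and 15.3-fold lower on day 7 (log2 -3.94, SE 0.26, adjusted p 1.7e-10). Fresh Krt8-/- cells held 488, 422 and 480 CPM, and their cultures 46.6, 31.4 and 33.9 CPM on day 1, 33.3, 31.0 and 33.4 CPM on day 3, and 26.8, 40.6 and 32.0 CPM on day 7. The fall on day 7 was 14.0-fold (log2 -3.81, SE 0.26, adjusted p 2.2e-10). As for Fgfr2, replicate 2 was the lowest on day 1 in both genotypes.

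Spry2, the paralogue of Spry1, lay about an order of magnitude lower in CPM and fell as well. It measured 32.2, 41.1 and 43.8 CPM in fresh Krt8+/+ cells, 5.58, 7.44 and 6.65 CPM on day 1, 4.46, 4.93 and 5.05 CPM on day 3, and 5.65, 5.56 and 5.63 CPM on day 7. The fresh libraries were all above the cultured ones, and the fall was 5.95-fold, 8.11-fold and 6.95-fold on days 1, 3 and 7 (day 7 log2 -2.79, SE 0.29, adjusted p 6.8e-08). In Krt8-/- cells it measured 38.9, 32.6 and 38.0 CPM on day 0, 3.41, 6.09 and 7.16 CPM on day 1, 2.26, 6.27 and 3.38 CPM on day 3, and 4.35, 3.43 and 3.25 CPM on day 7. The fall there was 9.94-fold on day 7 (log2 -3.31, SE 0.30, adjusted p 9.8e-09), again without overlap.

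Spry4, a further Sprouty inhibitor, was scarce in fresh cells and higher later, with a wide spread. Krt8+/+ libraries held 2.48, 1.2998 and 1.33 CPM on day 0, 6.76, 5.60 and 2.10 CPM on day 1, 21.4, 13.0 and 5.28 CPM on day 3, and 9.73, 8.38 and 10.01 CPM on day 7. Day 1 overlapped with day 0, and its difference did not pass (log2 1.46, SE 0.77, adjusted p 0.114), while day 3 was 7.76-fold higher (log2 2.91, SE 0.78, adjusted p 0.0034) and day 7 5.50-fold higher (log2 2.42, SE 0.77, adjusted p 0.0105). Krt8-/- libraries held 1.66, 3.24 and 0 CPM on day 0, 1.44, 5.45 and 2.26 CPM on day 1, 8.98, 14.1 and 4.15 CPM on day 3, and 9.04, 7.86 and 17.8 CPM on day 7. Day 3 was 5.56-fold higher than day 0 (adjusted p 0.0101) and day 7 7.09-fold higher (adjusted p 0.00362), and day 1 did not pass (log2 0.96, adjusted p 0.317). With 1 replicate left out some of these calls were lost at values of about the same size. Without replicate 1 the Krt8+/+ values were log2 2.78 with adjusted p 0.063 on day 3 and log2 2.80 with adjusted p 0.0562 on day 7, and the Krt8-/- day 3 value was log2 2.56 with adjusted p 0.0804. Without replicate 2 the Krt8+/+ day 7 value was log2 2.41 with adjusted p 0.0637. Without replicate 3, on the other hand, the Krt8+/+ day 1 value passed (log2 1.67, adjusted p 0.0282). It also passed when libraries were scaled to their totals (log2 1.92, adjusted p 0.0432) and with only the libraries compared in the fit (log2 1.58, adjusted p 0.0406).

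Spred1, which holds the RAS inhibitor neurofibromin at the membrane, passed the test on day 1 only. It measured 171, 156 and 195 CPM in fresh Krt8+/+ cells, 131, 97.9 and 75.0 CPM on day 1, 153, 163 and 143 CPM on day 3, and 105, 104 and 197 CPM on day 7. Day 1 lay below day 0 in every library, 1.72-fold on average (log2 -0.78, SE 0.23, adjusted p 0.008), whereas days 3 and 7 overlapped with day 0 and did not pass (adjusted p 0.521 and 0.187). Krt8-/- cells held 188, 172 and 133 CPM on day 0, 102, 91.4 and 79.7 CPM on day 1, 137, 144 and 124 CPM on day 3, and 118, 98.3 and 165 CPM on day 7. Day 1 was 1.81-fold lower (log2 -0.85, adjusted p 0.00478) and the later days did not pass (adjusted p 0.325 and 0.179). The day 1 fall did not pass without replicate 2 (log2 -0.76, adjusted p 0.0665 in Krt8+/+ and log2 -0.73, adjusted p 0.079 in Krt8-/- cells). It did not pass when libraries were scaled to their totals either (log2 -0.31, adjusted p 0.273, and log2 -0.37, adjusted p 0.2). With library totals Spred1 on days 3 and 7 was at log2 0.42 and 0.09 in Krt8+/+ and 0.28 and 0.06 in Krt8-/- cells, the other sign, and did not pass. The day 7 difference passed without replicate 3 (log2 -0.65, adjusted p 0.00569, and log2 -0.73, adjusted p 0.00267), the replicate with the highest day 7 value in both genotypes.

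Etv4 came up from almost nothing. The 3 fresh Krt8+/+ libraries held 1, 2 and 0 counts, or 0.0636, 0.217 and 0 CPM, and the cultures held 1.69, 3.18 and 2.04 CPM on day 1, 7.87, 12.1 and 7.26 CPM on day 3, and 21.5, 17.3 and 10.9 CPM on day 7. No cultured library overlapped with a fresh one. Because day 0 rests on 3 counts in all, the rise is given as a ratio of summed counts with its exact 95% counting interval, which leaves out the spread between replicates: 25.6 for day 1 (8.48 to 126), 102 for day 3 (34.7 to 497) and 187 for day 7 (63.7 to 908). The adjusted p was 5.4e-06, 2.1e-08 and 2.4e-09. Fresh Krt8-/- libraries held 6, 3 and 4 counts, or 0.432, 0.304 and 0.309 CPM, followed by 1.08, 3.44 and 1.71 CPM on day 1, 7.20, 8.74 and 5.56 CPM on day 3, and 16.1, 19.0 and 12.1 CPM on day 7. The ratio was 6.23 (3.46 to 12.2), 20.5 (11.8 to 38.9) and 43.9 (25.5 to 82.8), with adjusted p 2.7e-04, 3.6e-07 and 1.2e-08. Etv5, the paralogue of Etv4 and an AEC2 marker, was far more abundant and fell: its mean in Krt8+/+ cells was 1809, 112, 21.7 and 27.7 CPM on days 0, 1, 3 and 7 (day 7 log2 -6.03, adjusted p 2.2e-07).

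Dusp6, the ERK phosphatase, showed no change past the test. It measured 79.9, 98.2 and 109 CPM in fresh Krt8+/+ cells, 90.5, 53.8 and 109 CPM on day 1, 124, 114 and 95.8 CPM on day 3, and 83.2, 72.1 and 91.1 CPM on day 7. Each culture day overlapped with day 0. The log2 difference from day 0 was -0.18 on day 1 (95% interval -0.60 to 0.23, adjusted p 0.449), 0.22 on day 3 (-0.20 to 0.63, adjusted p 0.362) and -0.22 on day 7 (-0.63 to 0.20, adjusted p 0.348). In Krt8-/- cells it measured 85.7, 90.3 and 81.4 CPM on day 0, 78.8, 70.4 and 82.7 CPM on day 1, 95.4, 128 and 93.0 CPM on day 3, and 77.4, 71.9 and 95.04 CPM on day 7. Its day 3 libraries lay just above its day 0 libraries, the other days overlapped, and no difference passed (adjusted p 0.54, 0.212 and 0.765). The result depended on scaling on day 3: with library totals in place of TMM (trimmed mean of M values) scaling, Dusp6 was higher than on day 0 by log2 0.83 (adjusted p 4.0e-04) in Krt8+/+ and 0.86 (adjusted p 3.0e-04) in Krt8-/- cells. The same scaling turned the sign on days 1 and 7, to log2 0.27 and 0.24 in Krt8+/+ and 0.33 and 0.36 in Krt8-/- cells, none of which passed. It moves the median of all genes against day 0 by 0.43 to 0.60 on the log2 scale.

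**Figure D3:**
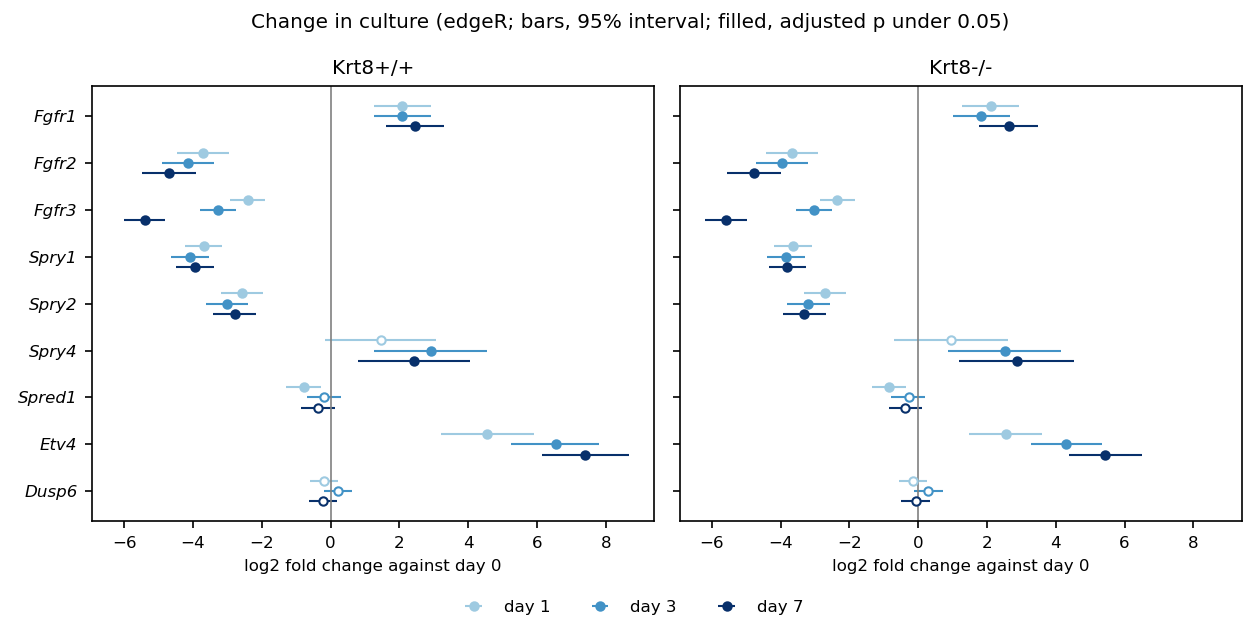
Log2 fold change of each gene on days 1, 3 and 7 against day 0 in Krt8+/+ and Krt8-/- cells, with 95% intervals from the edgeR fit and filled points where the adjusted p is under 0.05. Fgfr2, Fgfr3, Spry1 and Spry2 lie below 0 on all days, Fgfr1 and Etv4 above 0, Dusp6 has no filled point, and the fitted value of Etv4 rests on 3 counts on day 0 in Krt8+/+ cells.

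The stretch of 250 bases before the start of transcription is shown for 4 of the feedback genes, 2 that fell together (Spry1 and Spry2) and 2 whose levels stayed within a factor of 2 of day 0 on average (Dusp6 and Spred1). Sequences are from RefSeq on GRCm38.p6, read 5′ to 3′ on the strand of the gene, and capitals mark the ETS core CGGAAG or its reverse complement CTTCCG, searched on both strands. RefSeq windows were at hand for 6 of the 9 genes. The windows are chr10:99262981-99263230 (plus strand) for Dusp6, chr2:117120821-117121070 (plus) for Spred1, chr3:37639697-37639946 (plus) for Spry1 and chr14:105896820-105897069 (minus) for Spry2.
Dusp6: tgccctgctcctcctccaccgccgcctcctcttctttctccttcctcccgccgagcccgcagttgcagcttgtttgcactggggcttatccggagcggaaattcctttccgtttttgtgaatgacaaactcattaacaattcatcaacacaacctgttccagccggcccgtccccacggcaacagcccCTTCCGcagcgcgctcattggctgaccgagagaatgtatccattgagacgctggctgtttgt
Spred1: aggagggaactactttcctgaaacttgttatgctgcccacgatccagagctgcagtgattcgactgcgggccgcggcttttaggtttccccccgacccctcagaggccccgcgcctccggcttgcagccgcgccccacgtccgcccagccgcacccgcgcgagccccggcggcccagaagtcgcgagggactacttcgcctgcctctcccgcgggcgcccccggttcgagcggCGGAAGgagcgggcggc
Spry1: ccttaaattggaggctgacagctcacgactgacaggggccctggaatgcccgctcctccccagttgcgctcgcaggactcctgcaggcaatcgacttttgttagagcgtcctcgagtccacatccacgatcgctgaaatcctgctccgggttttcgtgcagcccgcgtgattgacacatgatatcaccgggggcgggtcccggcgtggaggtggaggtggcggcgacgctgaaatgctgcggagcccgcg
Spry2: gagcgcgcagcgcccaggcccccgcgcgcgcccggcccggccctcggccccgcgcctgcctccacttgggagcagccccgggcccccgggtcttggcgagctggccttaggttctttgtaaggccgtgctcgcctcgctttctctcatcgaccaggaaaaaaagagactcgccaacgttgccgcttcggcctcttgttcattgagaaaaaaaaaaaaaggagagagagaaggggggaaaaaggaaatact
Dusp6 holds 1 match and Spred1 holds 1, while Spry1 and Spry2 hold none, and the windows of Fgfr2 and Fgfr3 hold none either. Of the 32851 such windows that were searched, which did not cover every gene of the genome, 4466 or 13.6% hold the same letters. The GC content was 56.4% for Dusp6, 70.8% for Spred1 and 62.4% for both Spry1 and Spry2, beside a median of 52.4%. A match describes the letters only and was not tested as a binding site.

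Within culture fewer of the 9 genes moved. From day 1 to day 3, 2 genes passed in Krt8+/+ cells, beside 26.3% of all genes, and 2 in Krt8-/- cells, beside 23.6%. Etv4 was the higher one (log2 1.98, adjusted p 1.04e-03 in Krt8+/+ and log2 1.76, adjusted p 0.00303 in Krt8-/- cells) and Fgfr3 the lower one (log2 -0.87, adjusted p 0.0097, and log2 -0.67, adjusted p 0.0407). In Krt8+/+ cells the step of Fgfr3 was log2 -0.95 without replicate 2 (adjusted p 0.0615) and log2 -0.88 without replicate 3 (adjusted p 0.0662), so its size held while the call was lost. In Krt8-/- cells it was log2 -0.45, -0.81 and -0.75 without replicates 1, 2 and 3 (adjusted p 0.139, 0.104 and 0.123). With library totals the Krt8-/- step of Fgfr3 was log2 -0.58 (adjusted p 0.0625). The step of Etv4 in Krt8-/- cells did not pass without replicate 1 (log2 1.46, adjusted p 0.0846). From day 3 to day 7 only Fgfr3 passed, by log2 -2.12 (adjusted p 5.6e-05) in Krt8+/+ cells, beside 6.58% of all genes, and by log2 -2.57 (adjusted p 3.1e-06) in Krt8-/- cells, beside 10.5%. Etv4 was at log2 0.87 (adjusted p 0.192) and 1.13 (adjusted p 0.0574) for that step. With the replicate as a replicate block the Krt8-/- value of Etv4 passed (log2 1.13, adjusted p 0.0116), which made 2 genes called.

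The order of the levels, compared per kb of exon, was led by Spry1 and Fgfr2 in fresh cells and by Dusp6 and Spred1 after a week. It rests on the joined length of all annotated exons, which is 10328 bases for Fgfr2 and 2906 for Spry1. Their longest transcripts have 4429 and 2773 bases, so the order of neighbours, Spry1 and Fgfr2 among them, can change with the length used. An order by longest transcript was not computed. In fresh Krt8+/+ cells the means were 166 CPM per kb for Spry1, 101 for Fgfr2, 30.6 for Dusp6, 25.7 for Spred1, 21.0 for Fgfr3, 18.7 for Spry2, 1.45 for Fgfr1, 0.358 for Spry4 and 0.0301 for Etv4. The libraries of Dusp6 and Spred1 overlapped, as did those of Fgfr3 and Spry2, and the other neighbours did not. On day 7 the means were 26.2 CPM per kb for Dusp6, 19.9 for Spred1, 10.9 for Spry1, 7.92 for Fgfr1, 5.35 for Etv4, 3.86 for Fgfr2, 2.69 for Spry2, 1.97 for Spry4 and 0.497 for Fgfr3. Dusp6 and Spred1 overlapped there, and so did each neighbouring pair from Spry1 down to Fgfr2. In Krt8-/- cells Spry1 at 159 and Fgfr2 at 88.2 CPM per kb also led on day 0, and Dusp6 at 26.0 and Spred1 at 18.7 CPM per kb on day 7, with Fgfr3 again the lowest at 0.460 CPM per kb.

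Likeness of pattern was measured as the Pearson correlation of log2 CPM over the 8 group means, against 11484 genes of at least 10 CPM in a group. With 8 points that are largely set by the step from fresh to cultured cells, values near 1 are common, and they are given as a description. Within the set the closest pairs were Fgfr2 with Spry1 (r = 0.984), Spry1 with Spry2 (r = 0.981) and Fgfr2 with Spry2 (r = 0.980), and the most opposed pair was Fgfr1 with Fgfr2 (r = -0.99). Outside it, the genes most like Fgfr1 were Zfp52, Dusp5 and Cbwd1, the ones most like Fgfr2 were Tmub2, Tmem8 and Tnfaip8l3, and the ones most like Fgfr3 were Tmprss4, Prob1 and Map3k5 (r of at least 0.997 for each). Spry1 was most like Taok3, Elovl1 and Sfxn2, Spry2 most like Sord, Ctdsp1 and Fads1, and Spry4 most like Kcnab1, Gypc and Syncrip (r of at least 0.992 for each). Etv4 was most like Ankrd1, Abcg2 and Tbx3 (r = 0.998, 0.997 and 0.996). Spred1 and Dusp6 had looser partners, led by Arhgap29 (r = 0.984) and Golm1 (r = 0.956).

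The cells lost their AEC2 markers over the same days. The summed CPM of 14 AEC2 markers was 284619 to 382508 in fresh Krt8+/+ cells, 22152 to 118474 after 1 day, 1094 to 2979 after 3 days and 361 to 3328 after 7 days, and 13 of 14 were lower on day 1 and 14 of 14 on days 3 and 7. On day 1 replicate 2 had the lowest sum in both genotypes, 22152 CPM in Krt8+/+ and 20608 CPM in Krt8-/- cells, as it had the lowest Fgfr2, Fgfr3 and Spry1 and the highest Etv4. Of 8 markers of the transitional state between AEC2s and type I AECs (AEC1s), among them Krt18, Krt19 and Cldn4, all 8 were higher on each culture day, with sums of 875 to 1018 CPM on day 0 and 9927 to 15145 CPM on day 7. AEC1 markers summed to 2589 to 3170 CPM on day 0, 1290 to 1537 CPM on day 1 and 2622 to 4351 CPM on day 7, where 9 of 11 were higher and 1 was lower. In bulk RNA, fewer cells of a type and less RNA of a gene per cell cannot be told apart, so the fall of Fgfr2, Fgfr3, Spry1 and Spry2 is a fall in the whole sample.

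Markers of other cells also changed in culture, and not all in the same direction. The 12 fibroblast markers summed to 311 to 1203 CPM in fresh Krt8+/+ cells, 155 to 413 CPM on day 1, 1020 to 1822 CPM on day 3 and 904 to 1917 CPM on day 7, and of these genes 4 fell and 0 rose on day 1, 3 fell and 4 rose on day 3, and 5 fell and 4 rose on day 7. Collagens and Dcn made up much of this sum, and single genes of the list went different ways. The 4 that fell on day 1 were Col1a1 (log2 -1.48, adjusted p 0.0266), Col1a2 (log2 -1.89, adjusted p 0.00974), Col3a1 (log2 -3.57, adjusted p 3.3e-04) and Dcn (log2 -1.89, adjusted p 1.6e-04). Pdgfra, a receptor of fibroblasts, was above its own day 0 library in every replicate on day 1, with 51.9, 4.77 and 2.44 CPM on day 0 and 85.9, 59.3 and 45.2 CPM on day 1 in Krt8+/+ cells, beside 100.3, 54.7 and 28.0 CPM of Fgfr1. Its groups overlapped and the difference did not pass (log2 1.65, SE 0.82, adjusted p 0.0959), and in Krt8-/- cells it was log2 1.54 (adjusted p 0.128). On day 7 replicate 3 held the highest fibroblast sum in both genotypes (1917 and 3187 CPM) and also the highest Fgfr1 (107 and 127 CPM). Without replicate 3 the day 7 value of Fgfr1 still passed, as it did under all 10 settings run, with log2 values of 2.04 to 2.90 in Krt8+/+ and 1.94 to 3.07 in Krt8-/- cells. By day 7 in Krt8+/+ cells the collagens Col1a1 (log2 3.27, adjusted p 5.1e-05) and Col1a2 (log2 3.07, adjusted p 1.7e-04), Pdgfrb (log2 3.84, adjusted p 8.9e-06) and Thy1 (log2 4.39, adjusted p 9.9e-04) had risen. Dcn, Col3a1, Lum, Mfap4 and Inmt had fallen, and Inmt was at 0 in every day 7 library. Smooth muscle and pericyte markers went from 9.30 to 43.7 CPM on day 0 to 1377 to 2786 CPM on day 7 in Krt8+/+ cells, with 1, 4 and 5 of the 5 tested higher on days 1, 3 and 7. Mesothelial markers summed to 66.3 to 205 CPM on day 0 and 988 to 1873 CPM on day 7, where 1 of 4 was higher and 3 were lower. How far cells other than AECs contributed to the rise of Fgfr1, Spry4 and Etv4 was not tested.

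The remaining marker lists are given in the same way. Shared epithelial markers summed to 5302 to 5561 CPM on day 0, 3083 to 3575 CPM on day 1 and 3912 to 6039 CPM on day 7 in Krt8+/+ cells. Ciliated and club cell markers were present in fresh cells at 5541 to 11619 CPM and were down to 19.8 to 31.6 CPM on day 7, with 6 of 6 lower, and the part of these cells in the fall of Fgfr2, Fgfr3, Spry1 and Spry2 was not tested. Macrophage markers were higher on day 1 than on day 0 in every replicate, as Fgfr1 was, with sums of 147, 68.8 and 16.6 CPM on day 0 and 435, 258 and 51.7 CPM on day 1 in Krt8+/+ cells, and 1 of 10 genes passed (median log2 1.76). In Krt8-/- cells the sums were 82.3, 68.9 and 12.4 CPM and then 251, 204 and 43.7 CPM. By day 7 they were at 224, 61.0 and 9.48 CPM in Krt8+/+ cells. The part of macrophages in the rise of Fgfr1 was not tested. Endothelial markers were at 18.8 to 28.9 CPM on day 0 and 3.32 to 4.15 CPM on day 7, and lymphocyte markers at 0.886 to 5.47 CPM and 0.133 to 0.408 CPM.

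**Figure D4:**
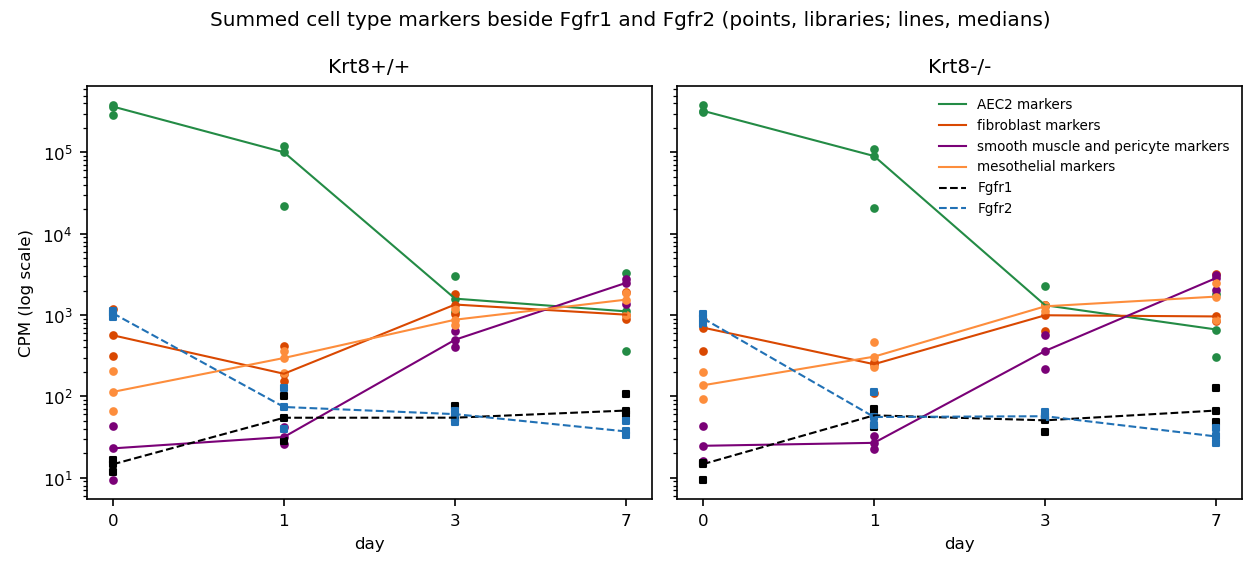
Summed CPM (log axis) of AEC2, fibroblast, smooth muscle and pericyte, and mesothelial markers by day, beside Fgfr1 and Fgfr2, with a point for each library and lines through the medians of the 3 libraries. Fgfr2 and the AEC2 markers are highest on day 0 in all libraries, Fgfr1 is above its day 0 values from day 1 on, and the smooth muscle and pericyte sum is highest on day 7.

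None of the 9 genes passed the test for a difference between Krt8-/- and Krt8+/+ cells. With edgeR, 0 of 9 passed an adjusted p of 0.05 on day 0, beside 0.0277% of all genes, and 0 of 9 on days 1, 3 and 7, beside 0.0166% on each. Over days 1 to 7, with the days weighted by the area of a trapezoid, 0 of 9 passed beside 0.0277%, and 0 of 9 differed in genotype effect between days, beside 0.00554%. DESeq2 called 0 as well. At an unadjusted edgeR p under 0.05 there was 1 gene on day 0 (Etv4), beside 479 of the 18046 genes tested. Day 7 had 1 (Spry2), beside 255, and days 1 to 7 together had 1 (Spry2), beside 520. Day 1, day 3 and the genotype effect by day had 0, beside 638, 452 and 268. The 36 log2 differences of 9 genes on 4 days ranged from -0.64 to 1.88, and 27 of them were below 0. Leaving aside Etv4 on day 0, which rests on few counts, they ranged from -0.64 to 0.33. Without replicate 1, where the genotypes differed in sex-linked transcripts, the range was -0.74 to 1.41, with 20 below 0, or -0.74 to 0.48 leaving aside Etv4 on day 0. There too 0 of 9 passed on each day, over days 1 to 7 and for the genotype effect by day.

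In 4 of these 36 comparisons the libraries of the genotypes did not overlap. For full separation of 3 against 3 libraries the exact two-sided permutation p is 0.1. The share of all genes with such separation was not counted, so the 4 are given as a description only. Etv4 on day 0 was higher in Krt8-/- cells, with 6, 3 and 4 counts against 1, 2 and 0, a ratio of 4.01 with an exact 95% counting interval of 1.10 to 21.9 (unadjusted p 0.0265, adjusted p 1), and the fitted log2 value was 1.88, or 1.41 without replicate 1. Spry2 on day 7 was lower, with 4.35, 3.43 and 3.25 CPM against 5.65, 5.56 and 5.63 CPM (log2 -0.61, 95% interval -1.21 to 0.00, unadjusted p 0.0466, adjusted p 1), and at log2 -0.74 without replicate 1. Fgfr1 on day 3 was lower by log2 -0.39 (-1.18 to 0.40), or -0.27 without replicate 1, and Fgfr3 on day 3 was higher by log2 0.33 (-0.17 to 0.82), or 0.40 without replicate 1, all with adjusted p 1. For Dusp6 on day 7 the interval of the genotype difference was -0.43 to 0.40 on the log2 scale. For the receptor that changed most in culture by CPM, Fgfr2, the groups overlapped on all 4 days. The genotype effect by day had an adjusted p of 1 for all 9 genes, and the lowest unadjusted p was 0.116, for Etv4.

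**Figure D5:**
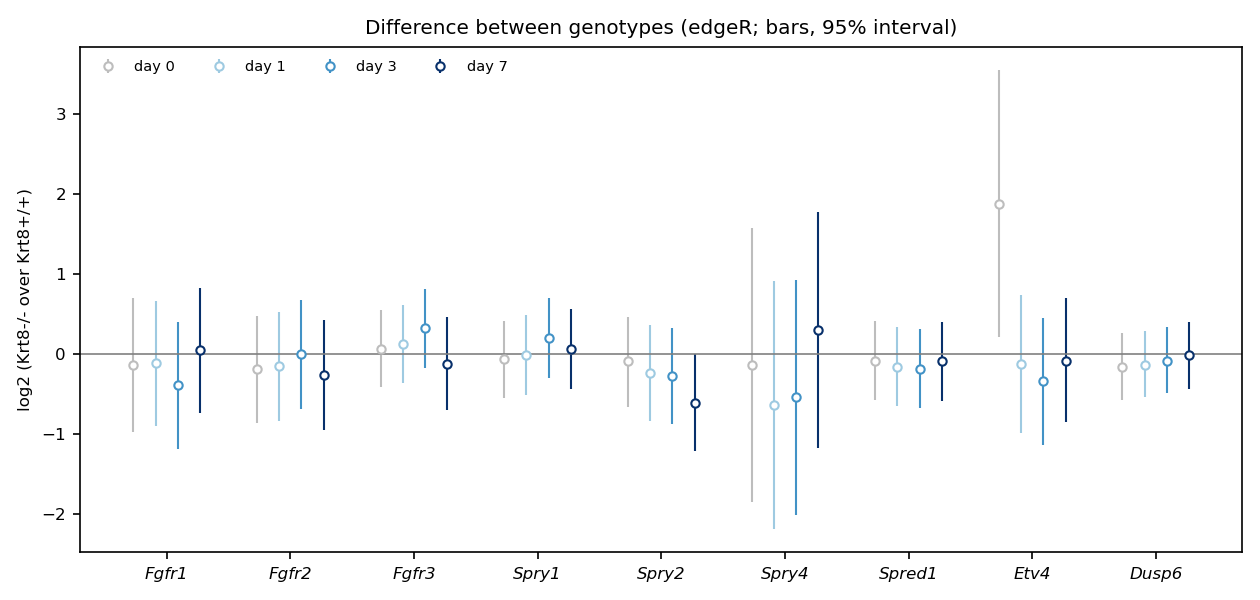
Log2 difference between Krt8-/- and Krt8+/+ cells for each gene on each day, with 95% intervals from the edgeR fit. All values but Etv4 on day 0 lie between -0.64 and 0.33, and no adjusted p is under 0.05.

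Genes of the FGF family, not all of them ligands of the receptors, changed in culture as well. Of 22 FGF genes 12 passed the filter, and in Krt8+/+ cells 5, 7 and 8 rose and 2, 2 and 3 fell on days 1, 3 and 7, where 54.7%, 54.0% and 58.8% of all genes were called, with a median log2 fold change of 3.42 on day 7 beside 0.00 over all genes. Krt8-/- cells had 8 of these 12 genes higher and 3 lower on day 7, where 58.5% of all genes were called, 28.6% higher and 29.9% lower. Fgf5 had 0 counts in the fresh Krt8+/+ libraries and 680 counts on day 7, at least 184-fold higher when 3 counts in the whole group are taken as the floor, and at least 194-fold higher in Krt8-/- cells. Fgf13, an FGF that stays inside the cell, went from 4 to 3057 counts (ratio 621, counting interval 242 to 2280). Fgf9 went down from 47 counts to 1 (ratio of day 0 to day 7 57.8, interval 9.89 to 2330), and Fgf11 from 202 to 6 (41.4, interval 18.7 to 114). The following were chosen after their values were seen, as ligands known to bind the receptors above. Fgf1 fell from a mean of 212 to 6.47 CPM (log2 -5.02, adjusted p 7.0e-09), and Fgf2 rose from 1.70 to 165 CPM (log2 6.39, adjusted p 4.8e-07). Fgf7 rose from 0.923 to 59.4 CPM (log2 5.78, adjusted p 2.6e-06) and Fgf10 from 1.74 to 14.9 CPM (log2 2.99, adjusted p 0.00397), both ligands of Fgfr2 that mesenchymal cells make. The 10 FGF genes that did not pass the filter were Fgf3, Fgf4, Fgf6, Fgf8, Fgf12, Fgf15, Fgf17, Fgf20, Fgf22 and Fgf23, with 0 to 75 counts over all 24 libraries.

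Cell surface partners and the enzymes that shape heparan sulphate followed. Of 14 other receptors and coreceptors tested, 5, 6 and 8 were higher and 5, 4 and 5 lower on days 1, 3 and 7 in Krt8+/+ cells, again beside 54.7%, 54.0% and 58.8% of all genes called. The proteoglycan Sdc3 rose from a mean of 1.70 to 272 CPM by day 7 (log2 7.17, adjusted p 8.9e-10), and Gpc6 rose from 0.577 to 5.52 CPM (log2 3.15, adjusted p 0.00552), which did not pass without replicate 3 (log2 1.75, adjusted p 0.0877). Gpc3 fell from 110 to 8.43 CPM (log2 -3.70, adjusted p 2.3e-06). Fgfr4, the receptor outside the set, was lower by log2 -3.09 (adjusted p 0.0259), but by -0.89 (adjusted p 0.537) without replicate 1, whose fresh library held 6.93 CPM. Of 13 heparan sulphate enzymes 1 was higher and 7 lower on day 1, beside 54.7% of all genes called, and 9 were higher and 2 lower on day 7, beside 58.8%. Hs6st2, a sulphotransferase, rose from 8.76 to 62.3 CPM (log2 2.82, adjusted p 2.7e-08), and Sulf1, which removes sulphate from heparan sulphate, rose from 16.7 to 56.6 CPM (log2 1.75, adjusted p 0.0064), or log2 0.78 (adjusted p 0.0525) without replicate 3. Hs3st1 fell from 4.10 to 0.826 CPM (log2 -2.32, adjusted p 4.4e-06), and Ndst2 from 39.8 to 26.9 CPM (log2 -0.57, adjusted p 0.00129), which did not pass with library totals (log2 -0.11, adjusted p 0.531).

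Downstream of the receptors genes of each list were called in both directions, in numbers to be read against the 58.8% of all genes called on day 7. Of 15 adaptors and transducers 3 were higher and 4 lower on day 7 in Krt8+/+ cells, with a median log2 fold change of -0.02. The phosphatase Ptpn11 rose from 56.7 to 121 CPM (log2 1.09, adjusted p 2.2e-05) and Src from 51.4 to 90.9 CPM (log2 0.82, adjusted p 8.0e-04), whereas Stat3 fell from 444 to 129 CPM (log2 -1.79, adjusted p 1.4e-07) and Plcg1 from 148 to 44.6 CPM (log2 -1.73, adjusted p 1.0e-04). Of 16 genes of the RAS to ERK cascade 5 were higher and 7 lower, with a median of -0.18. The small GTPases Rras2 and Rras rose, from 24.6 to 180 CPM (log2 2.87, adjusted p 2.2e-10) and from 46.2 to 159 CPM (log2 1.79, adjusted p 1.1e-06), and the kinases Rps6ka1 and Rps6ka3 fell by log2 -1.49 (adjusted p 3.4e-06) and -1.19 (adjusted p 9.7e-04). Of 20 other feedback and ETS genes tested 6, 7 and 8 were higher and 5, 4 and 3 lower on days 1, 3 and 7, with a median of 0.40 on day 7. Fosl1, an AP-1 factor, went from 8 counts in fresh cells to 13353 on day 1 (ratio 1410, counting interval 714 to 3260) and held a mean of 43.4 CPM on day 7. Dusp10, a phosphatase of the stress kinases, rose from 3.60 to 76.7 CPM on day 1 and 36.5 CPM on day 7 (log2 3.36, adjusted p 3.5e-10). Etv5 fell as given above, and Egr1 fell from 141 to 38.1 CPM (log2 -1.88, adjusted p 0.0116), or by log2 -1.21 (adjusted p 0.06) without replicate 1. Between genotypes 0 genes of these 6 lists passed the edgeR test on any day, with all libraries or without replicate 1.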

How the data were processed

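RNA from fresh and cultured AECs was sequenced, and the authors deposited 1 table of raw counts per gene for all 24 libraries. The submitters' processing notes name cutadapt 2.3, STAR 2.7.8a, RSEM 1.3.3 and GRCm38, the counts are whole numbers, and rounding and strand settings were not given in the sources used here. Rows for reporter sequences, 5 in number, held 0 counts and were left out. Groups followed the sample labels. Symbols and exon lengths came from GENCODE M21 (55154 of 55421 identifiers matched).

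Counts were tested with edgeR 4.0.16 (limma 3.58.1, R 4.3.3): filterByExpr with a minimum count of 10 and a minimum total of 15, TMM scaling, and 1 quasi-likelihood model of 8 groups with 16 residual degrees of freedom, with Benjamini-Hochberg adjustment over 18046 genes and a threshold of 0.05. CPM used TMM-scaled library sizes, and the log2 CPM for likeness had a prior count of 2. The 95% intervals used the t distribution on the residual degrees of freedom. DESeq2 1.42.0, other scalings, no filter, only the libraries compared, each replicate left out and the replicate number as a replicate block were alternatives. The script was tested on simulated data. The replicate numbers pair libraries because the labels give 1 batch to each number across genotypes and days. Deviations of same-numbered libraries correlated at r = 0.405 to 0.508 between genotypes on day 1 and at no less than -0.0345 in any comparison. Between day 7 and day 0 they correlated only weakly, at r = 0.0406 to 0.152 in Krt8+/+ and 0.0383 to 0.122 in Krt8-/- cells. P-values measure the spread between replicates, and intervals on counts cover counting error only.

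The members and lists were chosen with earlier results of these data known. All 9 members are described. From each of 6 pathway lists the named genes were the 2 largest rises and 2 largest falls on day 7 in Krt8+/+ cells, past the threshold, in 1 direction in all 3 replicates and with at least 1 CPM in a group.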

Additional observations from a re-analysis of the deposited data

How the results depend on the processing

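Against day 0 the number of the 9 genes called stayed within 1.5 times its value under every alternative, and between genotypes it stayed at 0. Of 810 alternative values of single genes over time 776 kept their side of the threshold, and those that did not were in Spry4, Spred1, Dusp6, Etv4, Fgfr3, Fgfr2 and Spry1. Signs turned in 22 of the 810, in differences of at most 0.49 on the log2 scale and none of them past the threshold before or after. Between genotypes 395 of 395 stayed short of the threshold, and 23 turned sign. The 72 counts over pathway lists moved by no more than 1.5 times, the 36 receptor shares kept their direction, and 6 of 214 values of named pathway genes changed. The counts that moved were for steps within culture. From day 1 to day 3 in Krt8+/+ cells the 2 calls became 4 with library totals and 1 to 2 with an replicate left out, and in Krt8-/- cells 0 to 1 with an replicate left out (0 without replicate 1). From day 3 to day 7 the 1 call became 2 with library totals in each genotype, and in Krt8-/- cells 2 with DESeq2 and 3 with only the libraries compared in the fit, which has fewer samples. With the replicate block, which keeps the pairing by number, it became 2 in Krt8-/- cells, and the block changed no other count of members by more than 1.5 times. The cause of the other moves was not tested. Library totals raised the share of calls against day 0 that were higher from 46.9 to 48.9% to 65.7 to 74.7%. Depth limits Etv4, which had at most 6 counts in a fresh library.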
